A study of Mus musculus with 8 samples.

Results

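Single cells sorted as colonic monocytes and macrophages included a small group of stromal cells, which made matrix proteins in place of myeloid genes. They were taken as kept cells with at least 10 UMIs of Dcn, Col3a1 and Col1a2 together and under 60 UMIs of C1qa, C1qb and C1qc per 10000, a UMI being a transcript molecule counted once. A cell was kept with at least 631 UMIs, at least 399 genes, at most 5% mitochondrial UMIs and no hemoglobin UMI. The rule gave 85 stromal cells among 3213 kept cells, from 5947 barcodes in 8 mice. Of these, 67 were among the 1863 kept cells of control mice and 18 among the 1350 kept cells of cKO mice.

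All 8 mice were female littermates, 6 to 12 weeks old by the study's methods, and all carried the same alleles, CD98hc flox/flox and Cx3cr1CreER-YFP. Control mice received corn oil and cKO mice received tamoxifen in corn oil on 5 days, with cells taken at day 7. Tamoxifen activates the Cre recombinase, which the Cx3cr1 promoter drives, so that Slc3a2, the gene of the amino acid transporter heavy chain CD98hc, is excised in CX3CR1+ cells. Because no tamoxifen-treated mouse without Cre was among the samples, tamoxifen itself and the deletion cannot be told apart. Lamina propria cells were gated for CD11b and for CCR2 or CD64, and 1 well per mouse was sequenced from the 3′ ends of transcripts.

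Fibroblasts and related stromal cells of the lamina propria secrete and cross-link the collagens and proteoglycans of the connective tissue. They also release chemokines, growth factors and WNT and BMP pathway proteins that act on epithelium and leukocytes, and they respond to interferons. Contractile stromal cells, such as smooth muscle cells and pericytes, carry actin and myosin genes in addition.

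The libraries differed in size. Control 3 and cKO 5 had 146 and 161 barcodes, whereas the others had 745 to 1187. Scrublet, a doublet caller, marked 24 of the 83 kept cells of cKO 5, but 1 of the 85 stromal cells, a cell of control 3 with 834 UMIs. A stromal cell held a median of 4824 UMIs (834 to 11989) and 2035 genes, and the median of the remaining kept cells ranged from 4160.5 UMIs in cKO 6 to 5761 in control 3.

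The rule separated the cells clearly in its own measure. Stromal cells had 10 to 362 UMIs of the 3 matrix genes, with a median of 82. The 4 lowest members had 10, 14, 14 and 15 UMIs, and the 4 highest cells just outside had 8, 3, 3 and 3. Of the remaining cells, 2857 (91.3%) had none. The C1q limit left out 1 further cell, with 10 matrix UMIs and 206 C1q UMIs per 10000, while the highest C1q level of a member was 22.5 per 10000.

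The targeted gene was low in these cells. Slc3a2 had at least 1 UMI in 27 of 85 stromal cells (31.8%), against 64.3% of the 3128 remaining cells. After thinning every cell to 1000 UMIs, which left 83 stromal and 2952 remaining cells, the shares were 7.27% and 27.3%. By mouse, Slc3a2 stood at 98.4, 95.6, 131 and 45.8 CPM (UMIs scaled to a common total for each mouse) in the stromal cells of control 1 to 4, and at 92.6, 0, 257 and 20.9 CPM in cKO 5 to 8. These values rest on 14, 9, 4 and 3 UMIs in the control mice and on 1, 0, 3 and 1 in the cKO mice. The 2 cKO mice with at least 5 stromal cells lay below all 4 control mice, and the other two cKO mice did not. Between the mice that entered the test, the log2 fold change was -2.55 ± 1.09 (SE) and did not pass (edgeR adjusted p = 0.915). By the study's text the recombination removes exon 3, and tags from the 3′ end of the transcript lie outside it, so the level does not check the deletion.

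No stromal cell held a UMI of the EYFP reporter or of Cx3cr1, the gene whose promoter drives Cre. A count of 0 of 85 cells allows a share of cells with a UMI of up to 3.53%, which is no limit on cells that express the gene. EYFP had a UMI in 15.4% of the remaining cells, or in 4.58% after thinning to 1000 UMIs. Cx3cr1 had one in 2.81% of them, within that limit, so no difference was detectable for Cx3cr1 at this depth. The gate genes were rare too. Itgam, which encodes CD11b, had a UMI in 2 of 85 stromal cells against 44.6% of the remaining cells. Ccr2 had one in 6 cells against 64.4%, and Fcgr1, which encodes CD64, in 2 cells against 50.5%. After thinning to 1000 UMIs these shares were 0.457% and 15% for Itgam, 1.26% and 33.0% for Ccr2, and 0.546% and 20.8% for Fcgr1. For these cells the labelled cell type, monocytes and macrophages, was thus not borne out by the RNA of the genes that defined the gate.

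Markers that the rule did not count were present too. Dcn, Col3a1 and Col1a2 were fixed by the rule, while Sparc, Adamdec1, Cxcl12 and all 9 further fibroblast markers were detected, and 8 of these 9 had a UMI in at least 50% of the stromal cells. The 6 stromal markers summed to between 28830 and 40144 CPM in the stromal cells of the 6 mice with at least 3 of them, and to between 30.6 and 116 CPM in the remaining cells of the same mice, which the rule largely sets. The 9 fibroblast markers summed to between 10010 and 12706 CPM in stromal cells and to at most 59.1 CPM in the remaining cells. Of the 8 blood endothelial markers, Cdh5, Kdr, Cldn5 and Flt1 had no UMI, while Pecam1, Plvap, Esam and Egfl7 had one in 3, 6, 3 and 1 cells. The list summed to 0 to 45.8 CPM in control mice and to 138 and 105 CPM in cKO 6 and 8, so that the groups did not overlap, against 29.8 to 66.8 CPM in the remaining cells, and its part in the differences between groups was not tested. These sums rest on few molecules in every mouse. A single UMI was worth 45.9 CPM in cKO 6 and 20.9 CPM in cKO 8, against 7.03 to 32.7 CPM in control mice. No UMI was found for any of the 3 lymphatic endothelial or 5 neutrophil markers in the table, or for 5 of 6 enteric glia markers. The epithelial list summed to at most 32.7 CPM.

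**Figure D1:**
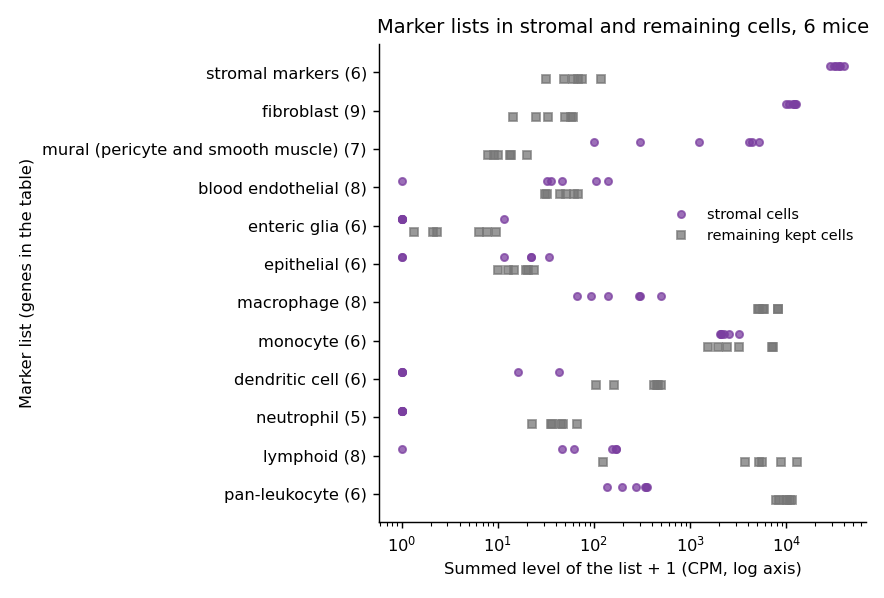
Summed level of each marker list (x axis, CPM plus 1, log scale) in the stromal cells (circles) and the remaining kept cells (squares) of the 6 mice with at least 3 stromal cells, 1 point per mouse. The stromal marker sums lie between 28830 and 40144 CPM in stromal cells and at or below 116 CPM in the remaining cells, and the pan-leukocyte sums lie between 137 and 356 CPM against 7739 and above.

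Leukocyte RNA was present at a low level. The 6 pan-leukocyte markers summed to 344, 340, 196 and 137 CPM in the stromal cells of control 1 to 4 and to 275 and 356 CPM in cKO 6 and 8. That was between 1.36% and 4.03% of their level in the remaining cells of the same mouse. Ptprc, Tyrobp or Fcer1g had a UMI in 48 of the 85 cells, with at most 4 UMIs of the 3 genes in 1 cell. The macrophage list stood at 1.11% to 6.02% of the level in the remaining cells.

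The monocyte list departed from this pattern, at 34.4% to 137% of the level in the remaining cells, through 2 of its 6 genes. Plac8, first known from placenta and spleen, had a UMI in 83 of 85 stromal cells (97.6%) and in 72.3% of the remaining cells, with 81.7% and 56.0% after thinning. Ly6c2, a surface protein of inflammatory monocytes, was found in 45 stromal cells (52.9%) against 39.7%, and in 22% against 25.9% after thinning. By contrast the other monocyte genes were at or near 0, with F13a1 absent and Ccr2, Hp and Chil3 in 6, 4 and 3 cells. Ly6a, Ly6c1 and Ly6c2 are near-identical in parts of their sequence, and their reads may have been split between them.

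The genes that stood highest against the remaining cells were matrix and secreted proteins. Because the rule picked the cells by counts of the same cells, these ratios are a description. The 25 genes with the highest ratio of mean CPM, 10 CPM added to both, ran from Dcn, the collagen-binding proteoglycan decorin, at 466-fold (11714 against 15.1 CPM, in 85 of 85 cells) to Ccn1, a matrix-bound signalling protein, at 97.2-fold (57 of 85 cells). All but one were higher in the stromal cells of all 8 mice, the exception being Acta2 with 7 of 8.

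Genes of collagen fibres and their assembly formed a first group. Col3a1 (280-fold), Col1a2 (232-fold) and Col1a1 (212-fold) encode the chains of collagens III and I. Serpinh1, the collagen chaperone of the endoplasmic reticulum, was 136-fold higher, and Pcolce, which enhances procollagen cleavage, 103-fold. Of the 14 fibrillar and network collagens, 13 were over 10-fold higher, and together they made up 1.31% of all stromal UMIs.

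Matrix glycoproteins and proteoglycans formed a second group. Sparc, a collagen-binding glycoprotein, was 254-fold higher, Bgn (biglycan) 169-fold, Lum (lumican) 158-fold and Postn (periostin) 135-fold. The 7 small leucine-rich proteoglycans in the table made up 1.82% of stromal UMIs, with 6 of 7 over 10-fold higher. The 29 matrix glycoproteins made up 2.46%, with 26 over 10-fold higher.

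Adamdec1, a secreted metalloprotease of the intestinal lamina propria, was 209-fold higher and had a UMI in 71 of 85 cells. Among signalling genes, Cxcl12, a chemokine that binds CXCR4, was 134-fold higher and found in 80 cells, and Rarres2, which encodes the chemoattractant chemerin, was 158-fold higher. Serping1, the inhibitor of complement C1, was 110-fold higher and found in 84 cells. Tcf21, a transcription factor of mesenchyme, was 110-fold higher and found in 78 cells. Plac9a, Plac9b and Gm9780 also stood in this list at 175-fold, 151-fold and 130-fold, but they share sequence and their separate values are uncertain.

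Genes with which stromal cells act on leukocytes and epithelium were spread unevenly over the cells. Ccl11, the eosinophil chemokine eotaxin, was found in 62 cells, at 327 to 1687 CPM in the 4 control mice and at 918 and 1130 CPM in cKO 6 and 8. Csf1, the growth factor of macrophages, was found in 46 cells and Il34, the second ligand of its receptor, in 17. Bmp4, a BMP ligand, was found in 62 cells, and Grem1, a BMP antagonist that sustains the stem cell niche, in 38. Il33 was found in 6 cells and Tslp in 7, so that their levels by mouse rest on few molecules.

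The stromal cells were not uniform. A gap in the summed UMIs of 7 mural genes, markers of smooth muscle and pericytes, set 10 cells apart, with at least 12 UMIs each and up to 193, from 75 cells with at most 5. A cut at 10 UMIs, placed after the values were seen, thus had no cell near it. The 10 cells came from 6 mice, 2 from control 1, 1 from control 2, 3 from control 4, 1 each from cKO 5 and cKO 6, and 2 from cKO 8. Median depth was 4971 UMIs in these cells and 4824 in the others.

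Other contractile genes and Hhip, not used to choose these 10 cells, were high in the same cells. Actg2, gamma-2 smooth muscle actin, had a UMI in 7 of 10 contractile cells and in 1 of the 75 others. Myl9, a myosin light chain, was found in 10 of 10 against 13 of 75, at 3370 against 40.4 CPM. Tpm2, a tropomyosin, stood at 2885 against 186 CPM, and Hhip, a Hedgehog-binding protein, at 447 against 16.2 CPM. Dcn, which the rule counts, was found in all 10 cells at a lower level, 5808 against 12460 CPM. Contractile cells with under 10 UMIs of Dcn, Col3a1 and Col1a2 were left out, so the rule sets the presence of these matrix genes. Mgp, an inhibitor of calcification, was found in 3 of 10 cells at 261 CPM against 63 of 75 at 3155 CPM. As the cells were not drawn as separate samples, no test was made.

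**Figure D2:**
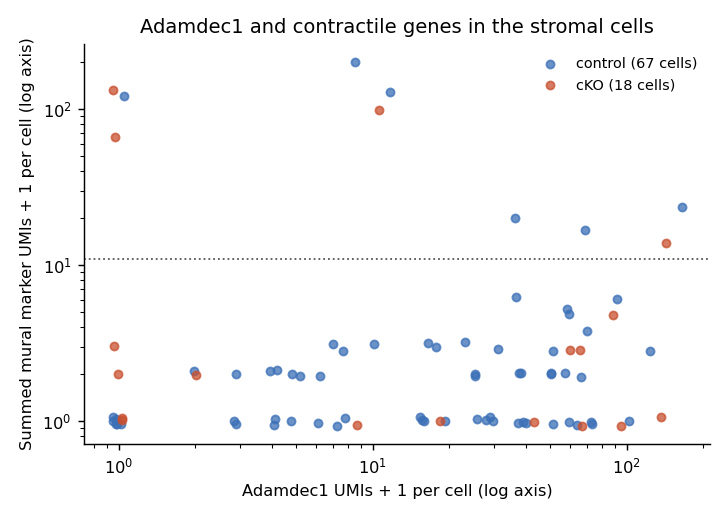
Each point is 1 of the 85 stromal cells, with its Adamdec1 UMIs plus 1 on the x axis and its summed UMIs of 7 mural marker genes plus 1 on the y axis (both log scales), points being shifted slightly to show overlaps and colours giving the group. The dotted line marks 10 mural UMIs, with 10 cells above it at 12 to 193 UMIs and 75 below it at 0 to 5, and Adamdec1 runs from 0 to 166 UMIs.

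Adamdec1 varied by the cell as well, from 0 UMIs in 14 cells to 166, with a median of 18. Unlike the mural genes it showed no gap, so the following classes are ranges, and 7 cells lay at 2 or 3 UMIs. In the 19 cells with at most 2 Adamdec1 UMIs, Prss23, a serine protease, stood at 1001 CPM against 18.8 CPM in the 49 cells with at least 10, and was found in 14 of 19 against 3 of 49 cells. Of its 78 UMIs in the low cells, 35 lay in 1 cell of cKO 6, and without that mouse Prss23 stood at 608 against 19.4 CPM. C3, the central complement component, stood at 873 against 41.3 CPM and Mfap5, a microfibril protein, at 834 against 244 CPM. Dcn stood at 16326 against 9862 CPM. Cells rich in Adamdec1 had more Ccl11, at 1681 against 424 CPM, and more Lgmn, a lysosomal protease, at 1088 against 347 CPM. Low and high cells held a median of 4188 and 5345 UMIs. The mix differed by mouse, as 23 of 31 cells of control 1 had at least 10 Adamdec1 UMIs, against 5 of 13 in control 4, 2 of 5 in cKO 6 and 5 of 10 in cKO 8.

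Stromal cells made up a smaller share of the kept cells in cKO mice. The share was 4.28% in control 1 (31 of 724 cells), 3.56% in control 2 (18 of 505), 5.88% in control 3 (5 of 85) and 2.37% in control 4 (13 of 549). In cKO mice it was 1.20% in cKO 5 (1 of 83), 1.43% in cKO 6 (5 of 349), 0.413% in cKO 7 (2 of 484) and 2.30% in cKO 8 (10 of 434). The lowest control mouse thus lay just above the highest cKO mouse, and the groups did not overlap. The 95% exact binomial intervals, which cover counting error only, were 1.27% to 4.02% for control 4 and 1.11% to 4.2% for cKO 8, so these 2 mice were not distinguishable.

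**Figure D3:**
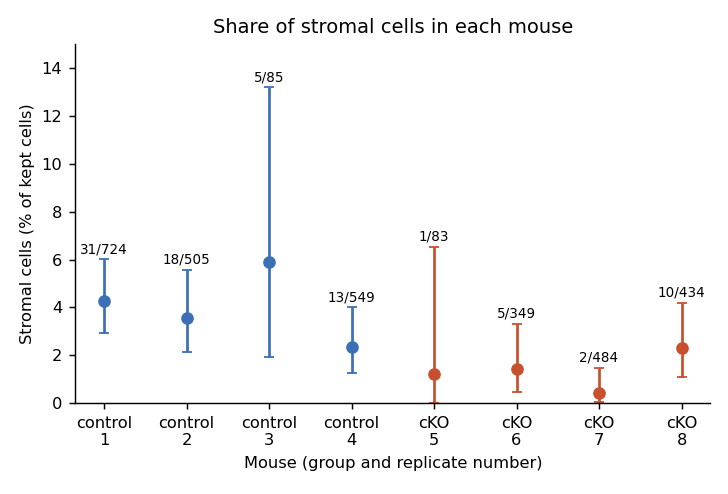
Stromal cells as a percentage of the kept cells (y axis) in each of the 8 mice (x axis), with bars for the 95% exact binomial interval and the cell numbers above. All 4 control mice, at 2.37% to 5.88%, lie above the 4 cKO mice, at 0.413% to 2.30%, and the intervals of control 4 and cKO 8 overlap widely.

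The mean share was 4.02% ± 1.47 (SD, n = 4) in control and 1.34% ± 0.778 (SD, n = 4) in cKO mice, and the cKO mean minus the control mean was -2.69 percentage points. Over all 70 arrangements of the mice, the exact permutation test (two-sided) gave p = 0.0286, the smallest value that 4 against 4 mice can give. Without the limit on mitochondrial UMIs the difference was -2.44 points and p = 0.0571 by the same exact test. The share describes the gated suspension, and a change in the remaining cells moves it as much as a change in stromal cells.

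Depth per stromal cell did not separate the groups. The median was 4693, 5313.5, 5083 and 5631 UMIs in control 1 to 4, and 3993 and 5186.5 UMIs in cKO 6 and 8, the only cKO mice with at least 3 stromal cells. These ranges overlapped, and the difference of the means was -590 UMIs (two-sided exact permutation test, p = 0.4, where 0.133 is the smallest possible). Without cKO 6 the difference was 6.38 UMIs in the other direction.

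For a test of gene levels, UMIs were summed over the stromal cells of each mouse with at least 3 of them, which left the 4 control mice and cKO 6 and 8. The sums were small, at 142288, 94157, 30538 and 65531 UMIs in control 1 to 4, 21783 in cKO 6 and 47803 in cKO 8. One UMI in cKO 6 was therefore worth 45.9 CPM. Of 4999 genes tested with edgeR's quasi-likelihood test, 6 were higher in cKO mice at an adjusted p under 0.05 (0.12% of the genes tested) and none was lower (0%). At an unadjusted p under 0.05, 88 were higher and 160 lower. DESeq2 called 0 genes in either direction at the adjusted threshold, with 40 higher and 32 lower at an unadjusted p under 0.05, and limma-voom called 1.

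3 of the 6 genes, Ifi27l2a, Ifit3 and Oas1g, are induced by interferon. Oas1g and Ifit3 entered the test, which asked for a UMI in at least 10 stromal cells, through the cKO cells, with 3 and 4 of 67 control cells against 8 and 6 of 18 cKO cells. Their calls were thus favoured by the filter. Ifi27l2a, a small hydrophobic protein, was at 2579, 3356, 1277 and 3510 CPM in control 1 to 4 and at 6978 and 8347 CPM in cKO 6 and 8. The groups did not overlap, as was the case for 353 of the 4999 genes (7.06%) with the cKO mice above. The log2 fold change was 1.44 ± 0.28 (SE; edgeR adjusted p = 0.00598). The mice left out of the fit, cKO 5 with 1 stromal cell and cKO 7 with 2, stood at 14165 and 13285 CPM. Ifi27l2a had a UMI in 66 of 67 stromal cells of control mice and in all 18 of cKO mice. Its direction held when any 1 of the 6 mice was left out, but the call was lost without control 1, control 2, cKO 6 or cKO 8 (edgeR adjusted p from 0.0572 to 0.723).

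Oas1g, an oligoadenylate synthetase family member, was at 7.03, 0, 0 and 30.5 CPM in control mice and at 45.9 and 230 CPM in cKO 6 and 8 (log2 fold change 3.90 ± 0.88, SE, edgeR adjusted p = 0.0350). Both cKO mice lay above all control mice, though cKO 6 by 1 UMI in 1 cell and cKO 8 by 11 UMIs in 6 of 10 cells. Outside the fit, cKO 5 had none and cKO 7 stood at 257 CPM. Its neighbour Oas1a, which was not called, had 12 cells with a UMI in all (log2 fold change 3.52 ± 0.91, SE, edgeR adjusted p = 0.140). These were 3 of 67 control cells and 9 of 18 cKO cells, so Oas1a also entered the test through the cKO cells. Oas1 genes are close copies, and counts may be split between them.

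Ifit3, which binds viral RNA complexes, was at 14.1, 0, 0 and 107 CPM in control mice, at 0 in cKO 6 and at 481 CPM in cKO 8 (log2 fold change 3.34 ± 0.71, SE, edgeR adjusted p = 0.0176). The groups overlapped, and of 23 UMIs in cKO 8, 12 lay in 1 cell.

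The promoter windows of Ifit3 and Oas1g are shown because both hold the letters of the interferon-stimulated response element, which the transcription factors of the type I interferon pathway bind. Each window runs from 250 bases before to 50 after the RefSeq start, 5′ to 3′ on the gene's strand, on GRCm38.p6. Capitals mark GAAA, any 2 bases and GAAA again, on either strand. The Ifit3 window is at chr19:34583279-34583578 (plus strand) and the Oas1g window at chr5:120887564-120887863 (minus strand).
Ifit3: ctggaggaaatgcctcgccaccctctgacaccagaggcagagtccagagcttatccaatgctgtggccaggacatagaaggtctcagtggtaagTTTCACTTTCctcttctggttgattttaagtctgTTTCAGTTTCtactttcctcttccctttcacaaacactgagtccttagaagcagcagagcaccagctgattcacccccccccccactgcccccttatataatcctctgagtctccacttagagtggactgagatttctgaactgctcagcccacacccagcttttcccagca
Oas1g: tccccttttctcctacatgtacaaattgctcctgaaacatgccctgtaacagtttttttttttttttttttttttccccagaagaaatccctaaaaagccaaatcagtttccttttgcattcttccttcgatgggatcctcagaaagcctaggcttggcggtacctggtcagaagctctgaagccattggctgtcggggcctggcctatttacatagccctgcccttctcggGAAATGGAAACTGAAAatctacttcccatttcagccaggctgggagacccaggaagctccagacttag
Each window held 2 matches, which overlap in Oas1g. Such a match was found in 3.44% of all 32851 promoter windows in the table, and none of the windows given for Mt1, Prss23 or Tnfaip6 held one. Ifi27l2a has no entry. A match describes the letters alone.

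Mt1 encodes metallothionein 1, which binds zinc and copper. It was at 640, 637, 426 and 824 CPM in control 1 to 4 and at 4086 and 962 CPM in cKO 6 and 8, so that the groups did not overlap (log2 fold change 1.81 ± 0.35, SE, edgeR adjusted p = 0.00598). Outside the fit, cKO 5 stood at 648 CPM, within the control range, and cKO 7 at 2914 CPM. In cKO 6, 74 of the 89 Mt1 UMIs lay in 1 of 5 cells, and in cKO 8, 31 of 46 lay in 1 of 10. Its promoter window at chr8:94178839-94179138 (plus strand, GRCm38.p6) is shown for its metal response elements, the sites of the zinc-sensing factor MTF1. Capitals mark TGCACNC or TGCGCNC on either strand.
Mt1: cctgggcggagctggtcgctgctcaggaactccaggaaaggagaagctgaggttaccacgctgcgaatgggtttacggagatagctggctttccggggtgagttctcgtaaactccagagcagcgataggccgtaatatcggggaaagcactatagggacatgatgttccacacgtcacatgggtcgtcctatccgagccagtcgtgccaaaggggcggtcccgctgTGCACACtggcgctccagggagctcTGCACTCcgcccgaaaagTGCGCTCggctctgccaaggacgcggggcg
It held 3 matches, and 25.7% of all windows held at least 1.

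Tnfaip6, a secreted hyaluronan-binding protein, was at 127, 117, 32.7 and 183 CPM in control mice and at 918 and 418 CPM in cKO 6 and 8 (log2 fold change 2.23 ± 0.44, SE, edgeR adjusted p = 0.00598). The groups did not overlap, but cKO 5 and cKO 7, outside the fit, had none. In cKO 8, 16 of the 20 Tnfaip6 UMIs lay in 1 of 10 cells. Prss23 was at 49.2, 223, 32.7 and 61.0 CPM in control mice and at 1607 and 146 CPM in cKO 6 and 8, with overlap (log2 fold change 2.80 ± 0.54, SE, edgeR adjusted p = 0.00598).

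The values of cKO 6 for these genes came largely from a single cell. This cell, with 7206 UMIs, 143 Dcn UMIs and no Adamdec1 UMI, held all 35 Prss23 UMIs and all 20 Tnfaip6 UMIs of the mouse, 74 of 89 Mt1 UMIs, 62 of 78 Apoe UMIs and 16 of 17 Irf1 UMIs. It held 5 of the 152 Ifi27l2a UMIs, of which 95 lay in the contractile cell of that mouse. Prss23 was also the gene that stood highest in cells with few Adamdec1 UMIs. Without cKO 6, which leaves cKO 8 as the only cKO mouse and assumes that it varies like the control mice, 0 genes were called by edgeR (78 higher and 122 lower at an unadjusted p under 0.05), and the log2 fold change was 0.49 for Prss23 and 0.54 for Mt1. With the mice of at least 10 stromal cells only, which also leaves cKO 8 alone, these were 0.41 and 0.46. Without control 2, Prss23 alone was called, at a log2 fold change of 3.79. Mt1, Prss23 and Tnfaip6 were the 3 higher calls without control 1, and they were also among the 6 without cKO 8. Without control 4 there were 15 higher and 6 lower.

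**Figure D4:**
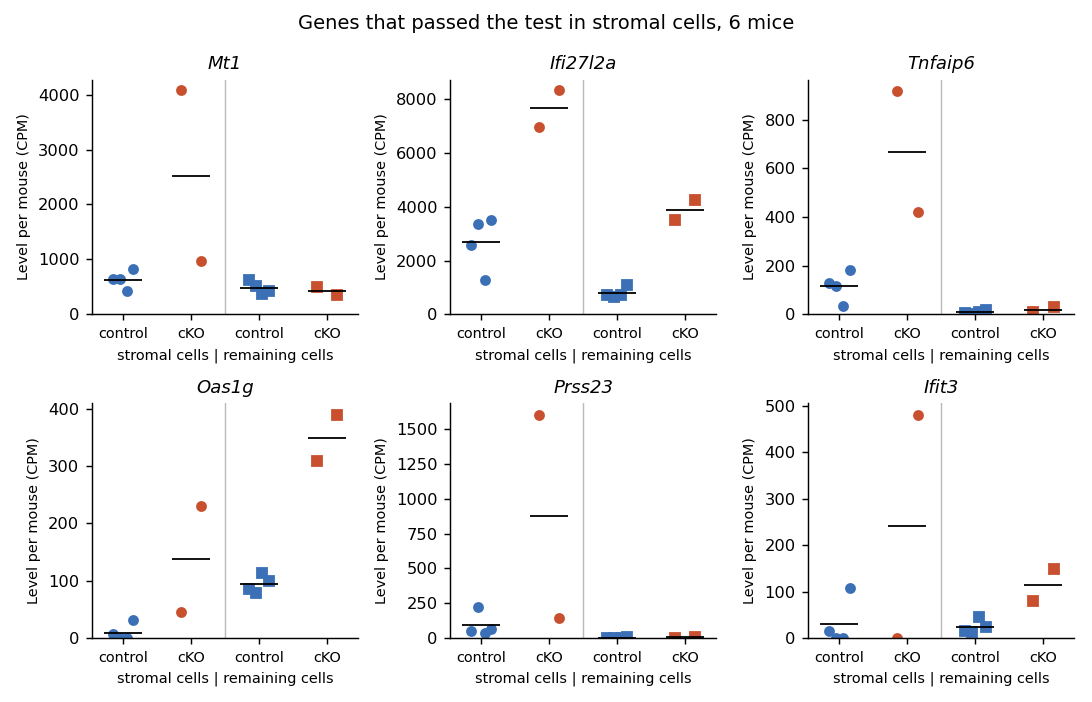
Level of the 6 called genes (y axis, CPM, each panel from 0) in the stromal cells (circles, left) and remaining kept cells (squares, right) of 4 control and 2 cKO mice, 1 point per mouse, with a line at the group mean. For Ifi27l2a the 2 cKO mice, at 6978 and 8347 CPM in stromal cells, lie above all control mice, while for Prss23 and Ifit3 the groups overlap.

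Interferon-stimulated genes as a list lay above the other genes. Of the 54 in the table, 31 were tested in stromal cells, 29 had a positive log2 fold change, and the median was 0.91, beside -0.13 over all 4999 genes. 2 of the 31 passed the adjusted threshold, Ifi27l2a and Ifit3 (6.45%, beside 0.12% of all genes), and 11 were higher at an unadjusted p under 0.05 (35.5%, beside 1.76% of all genes). Of the 2, Ifit3 had entered the test through the cKO cells, so the filter favoured its call. The filter can favour other members with few control UMIs in the same way. None was lower. Their summed level was 13227, 15219, 14769 and 17122 CPM in control 1 to 4 and 20842 and 26149 CPM in cKO 6 and 8, with no overlap. Ifi27l2a alone gave 2579, 3356, 1277 and 3510 CPM of this in the control mice and 6978 and 8347 CPM in the cKO mice. The gap in the sum thus rests in large part on 1 gene. The list had been chosen with earlier results of these data known. Without the filter on low counts, 37 of 50 were positive, and 11 were higher at an unadjusted p under 0.05 (22%, beside 1.38% of all genes). At that threshold 1 was lower, and the median was 0.60 beside -0.56 over all genes. With all 8 mice, 26 of 31 were positive, 1 was lower at an unadjusted p under 0.05, and the median was 0.67 beside -0.29.

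Single members illustrate the pattern. Oasl2, an oligoadenylate synthetase-like protein, stood at 35.1, 21.2, 0 and 45.8 CPM in control mice and at 91.8 and 188 CPM in cKO 6 and 8 (log2 fold change 2.26 ± 0.71, SE, edgeR adjusted p = 0.479). Its values rest on 10 UMIs in the control mice and on 11 in cKO 6 and 8. Rtp4, a chaperone-like interferon-induced protein, stood at 30.5 to 77.3 CPM in control mice and at 91.8 and 272 CPM in the cKO mice. In both the groups did not overlap, as in 14 of the 31 genes (45.2%, beside 7.06% of all genes), though neither passed the test. Bst2, which tethers budding virus, stood at 183 to 340 CPM in control mice and at 413 and 565 CPM in the cKO mice. Isg15, a ubiquitin-like modifier, overlapped, at 65.5 to 183 CPM against 91.8 and 272 CPM.

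**Figure D5:**
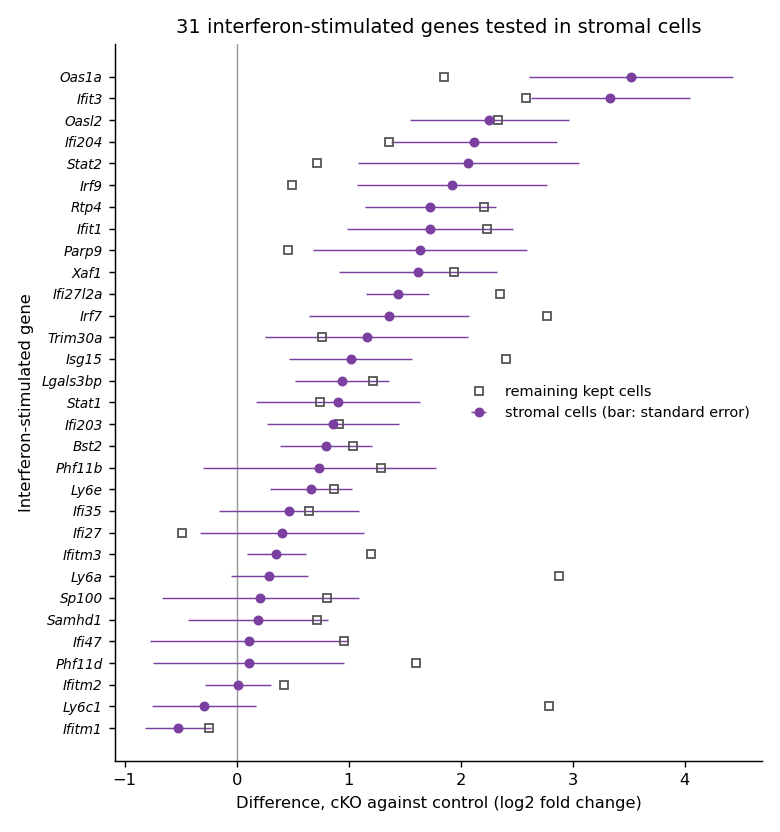
Difference between cKO and control mice (x axis, log2 fold change) for the 31 interferon-stimulated genes tested in stromal cells (y axis), as circles with the standard error for the stromal cells and as open squares for the remaining kept cells of the same 6 mice. In stromal cells 29 of 31 lie above 0, with Ly6c1 and Ifitm1 below, and the squares of Ly6a and Ly6c1 lie far to the right of their circles.

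In the remaining kept cells of the same mice, 19 of these 31 genes rose (61.3%, beside 0.76% of the 4999 genes) and 0 fell (beside 0.16%), with a median log2 fold change of 1.20. The 2 sets of values share their mice. Ifi27l2a there was at 625 to 1070 CPM in control mice and at 3521 and 4253 CPM in cKO 6 and 8, in each mouse below the stromal level of that mouse. Oas1g was at 78.1 to 113 CPM and at 308 and 390 CPM, in each mouse above the stromal level. The pan-leukocyte markers in the stromal sums stood at 1.36% to 4.03% of the remaining cells. Leaving out all cells with a Ptprc, Tyrobp or Fcer1g UMI left 14 interferon-stimulated genes in the test with a median of 1.19, of which 9 were higher at an unadjusted p under 0.05 (64.3%, beside 1.45% of the 2280 genes there) and 0 passed the adjusted threshold. Without cKO 8 the median was 0.56, beside -0.34 over all genes, and 4 of 30 genes were higher at an unadjusted p under 0.05 (13.3%, beside 1.75% of all genes).

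Of the 7 interferon gamma-induced GTPases tested, 0 passed the adjusted threshold (beside 0.12% of all genes). Only 1, Iigp1, was higher at an unadjusted p under 0.05 (beside 1.76% of all genes). The median log2 fold change was 1.16 over the list, beside -0.13 over all genes, and 0.42 over the list without cKO 8. Of 18 genes of MHC class I presentation tested, 0 passed and 0 had an unadjusted p under 0.05 in either direction, with a median of 0.20. B2m, the light chain of MHC class I, stood at 2521 to 4004 CPM in control mice and at 4453 and 5083 CPM in the cKO mice (log2 fold change 0.45 ± 0.27, SE, edgeR adjusted p = 0.983).

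Matrix genes showed no call. Of 14 collagens tested, 0 passed, and 1 was higher and 1 lower at an unadjusted p under 0.05 (beside 1.76% and 3.2% of all genes). Their median log2 fold change was 0.18, beside -0.13 over all genes. Col1a1 was at 1462, 2060, 3373 and 1221 CPM in control mice and at 3948 and 2929 CPM in cKO 6 and 8, with overlap. Among 29 matrix glycoproteins 0 passed (median -0.21), among 7 small leucine-rich proteoglycans 0 passed (median 0.07), and among 9 matrix proteases 0 passed (median 0.02). Adamdec1 was at 7379, 4121, 2030 and 7081 CPM in control mice and at 3581 and 9309 CPM in cKO 6 and 8, with wide overlap (log2 fold change 0.29 ± 0.32, SE, edgeR adjusted p = 0.989).

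No gene passed the test in the lower direction, and the 5 with the smallest p-values were Msmo1, Igfbp5, Tnfsf13b, Tsn and Cd74. Msmo1, an enzyme of cholesterol synthesis, stood at 246, 117, 32.7 and 183 CPM in control mice and had no UMI in any cKO mouse. Set against a floor of 3 UMIs over cKO 6 and 8, or 43.1 CPM, the pooled control level of 177 CPM was 4.12-fold higher. Control 3 alone lay below this floor, which covers counting error only, and Msmo1 did not pass (edgeR adjusted p = 0.0843). Igfbp5, which binds insulin-like growth factors, was at 492, 404, 262 and 504 CPM in control mice and at 138 and 62.8 CPM in cKO 6 and 8 (log2 fold change -2.31 ± 0.57, SE, edgeR adjusted p = 0.0988). Its groups did not overlap in the fit, as was the case for 493 of the 4999 genes (9.86%) with the cKO mice below, but the single cell of cKO 5 stood at 926 CPM.

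Tnfsf13b, the B cell factor BAFF, was at 365, 234, 393 and 320 CPM in control mice, at 0 in cKO 6 and at 83.7 CPM in cKO 8 (log2 fold change -2.53 ± 0.65, SE, edgeR adjusted p = 0.140), and cKO 7 stood at 257 CPM. Tsn, an RNA-binding protein, stood at 98.4 to 131 CPM in control mice and had no UMI in cKO 6 and 8, while cKO 7 stood at 171 CPM. Its pooled control level of 111 CPM was 2.58-fold above the same floor, and it did not pass (edgeR adjusted p = 0.217). Cd74, the invariant chain of MHC class II and abundant in the remaining cells, was at 229 to 426 CPM in stromal cells of control mice and at 91.8 and 83.7 CPM in those of cKO 6 and 8 (log2 fold change -2.09 ± 0.58, SE, edgeR adjusted p = 0.217). It was thus at 1.11% of its level in the remaining cells. Of the 11 WNT, BMP and R-spondin pathway genes tested, 0 passed, and 4 were lower at an unadjusted p under 0.05 (beside 3.2% of all genes), with a median of -0.94. Grem1 was one of them, at 246, 627, 164 and 305 CPM in control mice, 0 in cKO 6 and 105 CPM in cKO 8 (log2 fold change -2.36 ± 0.66, SE, edgeR adjusted p = 0.217). The single cell of cKO 5 alone held 46 Grem1 UMIs, so the difference turned when all 8 mice were used, at a log2 fold change of 1.21. Of 9 chemokines tested 0 passed (median -0.44), and Cxcl12 stood at 1867 to 3373 CPM in control mice and at 1377 and 2197 CPM in the cKO mice.

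The make-up of the sums also differed by mouse. The mural list summed to 1223, 297, 98.2 and 5234 CPM in control 1 to 4 and to 4361 and 4100 CPM in cKO 6 and 8, with 0 to 3 contractile cells per mouse. In a fit without the 10 contractile cells, added after the values were seen, Mt1, Prss23, Tnfaip6 and Oas1g were again higher, with Fosb added, Igfbp5 was lower at a log2 fold change of -2.78 (edgeR adjusted p = 0.0365), and Ifi27l2a did not pass. The immediate early genes, which respond within minutes to tissue dissociation, summed to 29564 CPM in cKO 6 but to 10230 CPM in cKO 8 and to 11559 to 16589 CPM in control mice.

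Last, it was asked for which genes the change between groups differed between stromal and remaining cells, with each mouse as a block. The remaining cells were a mix of cell types whose marker sums differed by group. Their monocyte list summed to 1534 to 3252 CPM in control mice and to 7344 and 7039 CPM in cKO 6 and 8. The macrophage list summed to 5664 to 8292 CPM against 5207 and 5138 CPM, and the dendritic cell list to 425 to 492 CPM against 103 and 160 CPM. The part of this mix in the differences was not tested. The difference passed for 17 of 4999 genes, 6 in which the change was higher in stromal cells (0.12%) and 11 in which it was lower (0.22%). At an unadjusted p under 0.05 there were 125 (2.5%) and 220 (4.4%). Without the block, and with limma-voom taking the mouse as a random term, 0 genes passed, at 112 and 234 genes higher and 198 and 175 lower at an unadjusted p under 0.05. At this threshold the differences thus depended on the way of fitting.

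Among the lower ones were 3 Ly6 family genes. Ly6a, a surface protein induced by interferon, was in the remaining cells at 60.9 to 122 CPM in control mice and at 601 and 761 CPM in cKO 6 and 8. In stromal cells it was at 886, 1572, 3144 and 1114 CPM in control mice and at 1285 and 2657 CPM in the cKO mice, with overlap. The difference of the log2 fold changes was -2.44 ± 0.30 (SE, edgeR adjusted p = 1.57e-12). It was -3.17 ± 0.40 (SE) for Ly6c2, which was at 197, 287, 786 and 229 CPM in stromal cells of control mice and at 321 and 314 CPM in those of cKO 6 and 8, while in the remaining cells it was at 87.7 to 255 CPM and at 1314 and 1826 CPM. It was -3.02 ± 0.42 (SE) for Ly6c1. These genes were thus already present in stromal cells of control mice, at a level above that of the remaining control cells for Ly6a and Ly6c1 in all 4 mice.

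Saa3, an acute phase protein, had the largest difference of the 11, at -5.69 ± 0.62 (SE). In stromal cells it was at 169, 0, 0 and 2503 CPM in control mice and at 45.9 and 20.9 CPM in cKO 6 and 8, and 143 of the 164 UMIs of control 4 lay in 1 cell. In the remaining cells Saa3 was at 120 to 783 CPM in control mice and at 2234 and 954 CPM in cKO 6 and 8. Timp1, an inhibitor of matrix metalloproteases, followed at -4.21 ± 0.75 (SE), with 183, 63.7, 196 and 458 CPM in stromal cells of control mice and 45.9 and 41.8 CPM in those of the cKO mice. Its level in the remaining cells was 0 to 25.1 CPM in control mice and 9.80 and 88.9 CPM in cKO 6 and 8. C3 was at -3.83 ± 0.64 (SE), with 169, 627, 131 and 290 CPM in stromal cells of control mice and 0 and 83.7 CPM in those of the cKO mice. Its level in the remaining cells was 16.1 to 33.1 CPM in control mice and 58.8 and 71.5 CPM in cKO 6 and 8. For Timp1 and C3 the stromal levels of the 2 groups did not overlap, as for 9.86% of all genes with the cKO mice below. Neither passed the test in stromal cells alone (edgeR adjusted p = 0.664 for Timp1 and 0.221 for C3). Outside the fit, cKO 7 stood at 85.7 CPM of Timp1, above control 2, and at 1200 CPM of C3, while cKO 5 had no UMI of either.

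In the other direction stood Cd81, Irf1, Mt1, Fosb and Apoe. Mt1 was in the remaining cells at 365 to 626 CPM in control mice and at 494 and 351 CPM in the cKO mice, which overlapped, and the difference of the changes was 1.85 ± 0.31 (SE, edgeR adjusted p = 2.21e-06). Fosb, an immediate early transcription factor, was at 164 to 473 CPM in stromal cells of control mice and at 1423 and 711 CPM in cKO 6 and 8, with a difference of 1.80 ± 0.36 (SE). Of its 31 UMIs in cKO 6, 23 lay in the single cell described above, and of 34 in cKO 8, 17 lay in 1 cell. Cd81, a tetraspanin, Irf1, an interferon regulatory factor, and Apoe, a lipid carrier, had differences of 2.29, 2.14 and 1.29, and most of their UMIs in cKO 6 lay in the single cell described above. Without cKO 6, 0 genes were higher and 7 lower, and the difference for Irf1 was -0.90 and for Apoe -0.36.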

How the data were processed

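Colonic lamina propria cells of 8 mice (4 per group) were profiled with droplet 3′ RNA sequencing, 1 library per mouse. The authors deposited a table of UMI counts per gene and cell, not normalised, with 16889 genes and 5947 barcodes. The submitters' processing notes name Cell Ranger, STAR 2.5.3a and the genome mm10. Cells carry running numbers in place of barcode sequences, so barcodes shared between libraries could not be counted.

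Members and gene lists were chosen with earlier results of these data known. Groups came from the labels. From the deposited counts, UMIs of the stromal cells and of the remaining kept cells were summed for each mouse with at least 3 stromal cells. Genes with over 1 CPM in at least 3 sums and a UMI in at least 10 stromal cells were tested with edgeR 4.0.16 (TMM, quasi-likelihood test, Benjamini-Hochberg adjustment, false discovery rate 0.05). The same test compared the change between stromal and remaining cells with the mouse as a block. DESeq2 1.42.0 and limma 3.58.1 were alternatives. Shares and median depths were compared with exact permutation tests over mice, and shares have 95% Clopper-Pearson intervals, which cover counting error only. The deposited table gives Ensembl IDs, and the 88 without a symbol in the reference kept their IDs and stayed in the sums and tests. All scripts that fit many genes were tested on simulated data.

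Genes named in the text were Slc3a2, EYFP and the gate genes, members of the fixed lists, the 25 genes with the highest ratio to the remaining cells, called genes whose groups do not overlap, the 5 lower genes with the smallest p, and up to 5 genes in each direction whose change differed most between cell groups. Prss23 and Ifit3, which overlap, and the genes of the contractile and Adamdec1 ranges fall outside this rule and were named after their values were seen. By the study's text all samples shared the processing day and the cartridge, and nothing states that the mice came from separate cages. The p-values thus measure the spread between these mice. Doublets marked by Scrublet (scanpy 1.11.5) were kept and left out in an alternative. Promoter windows come from RefSeq on GRCm38.p6, where 5 of the 6 called genes had an entry.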

Additional observations from a re-analysis of the deposited data

Results flagged for a closer look

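In 5 of the 35 groups of control mice looked at, 1 mouse stood far from the other three, where chance gives about 1 in 20. Prss23 in stromal cells was at 223 CPM in control 2, with the next at 61.0 CPM. Control 4 was far above the others for 3 interferon-stimulated genes, at 107 CPM for Ifit3 (next 14.1 CPM), 183 CPM for Isg15 (next 77.3 CPM) and 4532 CPM for Ifitm3 (next 3373 CPM). Ly6c2 was at 786 CPM in control 3, which has 5 stromal cells, with the next at 287 CPM.

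By edgeR's test with the mouse as a block, the log2 fold change between cKO and control mice differed between stromal and remaining cells for 17 genes. The remaining cells are a mix whose marker sums differed by group, and the part of this mix was not tested. The difference was in the direction of stromal cells for Cd81 (2.29), Irf1 (2.14), Mt1 (1.85), Fosb (1.80), Apoe (1.29) and Cst3 (1.01). It was in the other direction for Saa3 (-5.69), Timp1 (-4.21), C3 (-3.83), Ly6c2 (-3.17), Ly6c1 (-3.02), Spon1 (-2.47), Ly6a (-2.44), Hsd11b1 (-2.34), Lgals9 (-1.92), Mgst1 (-1.64) and Plac8 (-1.09).

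Among the barcodes that failed a filter on cells, 5 held at least 10 UMIs of Dcn, Col3a1 and Col1a2 with C1q under the limit, 4 of them only through the limit on mitochondrial UMIs.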

How the results depend on the processing

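The difference in the stromal share ranged from -3.24 to -2.07 percentage points when 1 mouse was left out, each with p = 0.0571 by the exact permutation test, the smallest that 4 against 3 mice can give. It was -2.44 without the mitochondrial limit (p = 0.0571, exact permutation test). The difference in median UMIs ranged from -1187 to 6.38, the latter without cKO 6.

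Against 6 genes higher and 0 lower, DESeq2 gave 0 and 0 (40 and 32 at an unadjusted p under 0.05), limma-voom 1 higher, no filter on low counts 13 and 8, a UMI in at least 20 stromal cells 2 higher, and all 8 mice 5 lower. Mice with at least 10 stromal cells gave 0 (108 higher and 156 lower at an unadjusted p under 0.05). Leaving out cells with a Ptprc, Tyrobp or Fcer1g UMI gave 1 higher among 2280 genes, and leaving out contractile cells, an alternative added after seeing the data, gave 1 lower. Leaving out 1 mouse gave 0 to 15 higher and 0 to 6 lower. No cause was tested.

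For the difference between cell groups, 6 higher and 11 lower became 0 and 0 without the mouse as a block and 0 and 0 with limma-voom and the mouse as a random term. Leaving out 1 mouse gave 0 to 13 higher and 7 to 17 lower.

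Signs turned for these genes, none of them past the threshold there. Without cKO 8 the log2 fold change was -0.25 for Isg15, -0.47 for Ly6a, 0.077 for Ly6c1 and -0.69 for Adamdec1, and the other end of the range over mice left out was 1.41, 0.70, -0.65 and 0.80. Without leukocyte-UMI cells it was 0.58 for Ly6c1 and 0.86 for Ly6c2. Ly6c2 was at 0.13 with limma-voom, 0.0084 with the 20-cell filter, 0.11 with all 8 mice, 0.40 with mice of at least 10 stromal cells and 0.35 without control 3, and at -0.41 without control 1. Grem1 was at 1.21 with all 8 mice, and the difference between cell groups was -0.36 for Apoe and -0.90 for Irf1 without cKO 6, against 2.44 and 3.86 without cKO 8.

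No paired analysis was possible because the groups share no replicate numbers. Leaving out a cKO mouse leaves 1, which is assumed to vary like the control mice. With 18 stromal cells in cKO mice, 10 of them in 1 mouse, depth limits every gene comparison.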
